A study of Rattus norvegicus with 15 samples.

Results

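The regional transcription factors of the gut were followed in intestinal RNA of 15 rats, through every probe outside the controls that carries the name Gata4, Gata5, Gata6, Cdx1, Cdx2, Hnf4a, Pdx1, Klf4 or Klf5. Of these 9 genes, 8 have a probe under their name. They hold 13 of the 22586 named probes, 3 each for Gata6 and Hnf4a, 2 for Klf5 and 1 each for Gata4, Cdx1, Cdx2, Pdx1 and Klf4. Gata5 was not analysed here. The probes of these genes were matched by name. The rats were male and fell into 3 groups of 5, with an array for each rat. Goto-Kakizaki (GK) rats, a nonobese strain with inherited type 2 diabetes, underwent Roux-en-Y gastric bypass at 16 weeks of age with a Roux limb of 30 cm (GK-S-30), or had the bowel opened and rejoined 16 cm beyond the ligament of Treitz and were then pair-fed (GK-Sham-PF). Wistar rats, without diabetes and with no operation described, were the third group. The rats were fasted and killed 14 weeks after operation, and each gave a piece of 5 cm. In Wistar and GK-Sham-PF rats it lay 21 to 26 cm from the ligament of Treitz, and in GK-S-30 rats it was cut from the Roux limb 5 cm below its junction with the stomach. The difference GK-S-30 minus GK-Sham-PF is called the surgery contrast, and GK-Sham-PF minus Wistar the strain contrast, although the sham operation and pair-feeding go with the strain in it. Strain and operation both separate GK-S-30 from Wistar rats. The Roux limb began at the cut 16 cm beyond the ligament of Treitz. The methods give the pieces of the other groups as the corresponding stretch, so the original position along the bowel was matched. Its junction with the stomach was particular to GK-S-30 rats.

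The gut tube is divided along its length by a small set of DNA-binding proteins. Gata4 marks the duodenum and jejunum and fades in the ileum, Gata6 is expressed along the whole tube, and Pdx1 is found in the pyloric region, the duodenum and the pancreas. The homeobox genes Cdx1 and Cdx2 give the epithelium its intestinal rather than gastric identity and increase toward the colon. Hnf4a, a nuclear receptor, drives enterocyte genes of fat and sugar handling, Klf4 marks postmitotic surface and goblet cells, and Klf5 marks the dividing crypt. Their transcripts were read here as measures of which stretch of bowel, and which layer of its epithelium, the pieces came from.

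Each of these probes is a run of 60 bases. The probes of Cdx1 and Klf4, the 2 genes with a called difference, are given, and the 3 probes of Hnf4a, which differed against Wistar rats. Each has the position in the transcript that the array annotation lists. For A_44_P791953 this position is counted on another transcript record than for the other Hnf4a probes. Exon and untranslated parts were not assigned here, and for probes that may lie outside the coding sequence only the first 30 bases are printed. All letters are lower case because no motif is marked.
Cdx1, A_44_P384236, from base 391: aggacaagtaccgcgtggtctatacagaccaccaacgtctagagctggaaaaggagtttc
Hnf4a, A_44_P419188, from base 141: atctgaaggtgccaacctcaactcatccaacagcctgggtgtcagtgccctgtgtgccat
Hnf4a, A_43_P12146, from base 1314: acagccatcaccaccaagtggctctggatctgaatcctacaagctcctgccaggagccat
Hnf4a, A_44_P791953, from base 2418, first 30 bases: agtcctttctgaaggagaaatccattccac
Klf4, A_43_P12908, from base 2242, first 30 bases: tatgcactgtggtttcagatgtgcaataat
On the rn4 build, the Cdx1 probe lies on the minus strand at chr18:56984059-56984118 and the Klf4 probe on the minus strand at chr5:73446994-73447053. The Hnf4a probes lie on the plus strand at chr3:154464030-154464089 (A_44_P419188), chr3:154482699-154482758 (A_43_P12146) and chr3:154485054-154485113 (A_44_P791953), in this order along the gene. The Klf5 probe A_44_P526866 spans 1145 bases of chr15:83106653-83107797, so that its 60 bases are split in the genome. For the Pdx1 probe no position is listed.

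All 13 probes were well above background on all 15 arrays and none was saturated. Values are log2 signals after quantile normalization, which are relative. A level of one probe cannot be set against that of another, so only differences between groups are compared. The arrays of Wistar replicate 3 and of GK-Sham-PF replicate 5 were dimmer before normalization than the other 13, with a 75th percentile of the signal of 207 and 208 against 302 to 357. The arrays came on 4 slides, each scanned at its own time. Slide A held 4 Wistar arrays, slide B 1 Wistar and 3 GK-Sham-PF arrays, and slide C 2 arrays each of GK-Sham-PF and GK-S-30. Slide D held 3 arrays, all of GK-S-30. No slide held both Wistar and GK-S-30 rats. Groups were compared by limma in a model over all arrays, with p-values adjusted by the Benjamini-Hochberg method over 17068 tested probes. Error bars and ± give the SD of 5 arrays.

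Few of the 13 probes were called, a share near that of all tested probes in the surgery contrast and lower in the others. These shares were not tested against each other. In the surgery contrast, 1 of 13 probes passed an adjusted p of 0.05, that of Klf4, or 7.69% against 8.39% of all tested probes. In the strain contrast 0 of 13 passed by limma, where 7.87% of all did, and 0 had an unadjusted p under 0.05 by limma or by the Tukey comparison of the methods. In GK-S-30 against Wistar rats 1 of 13 passed, that of Cdx1, where 24.1% of all did. Arrays of the groups did not overlap for 2, 0 and 2 of the 13 probes in these 3 comparisons, against 8.43%, 9.04% and 18.3% of all probes. The median size of the log2 difference over the 13 probes was 0.16, 0.17 and 0.20, and over all tested probes 0.16, 0.15 and 0.23. In a whole piece of bowel, fewer cells of a type and less RNA per cell cannot be told apart, which holds for every difference below.

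**Figure D1:**
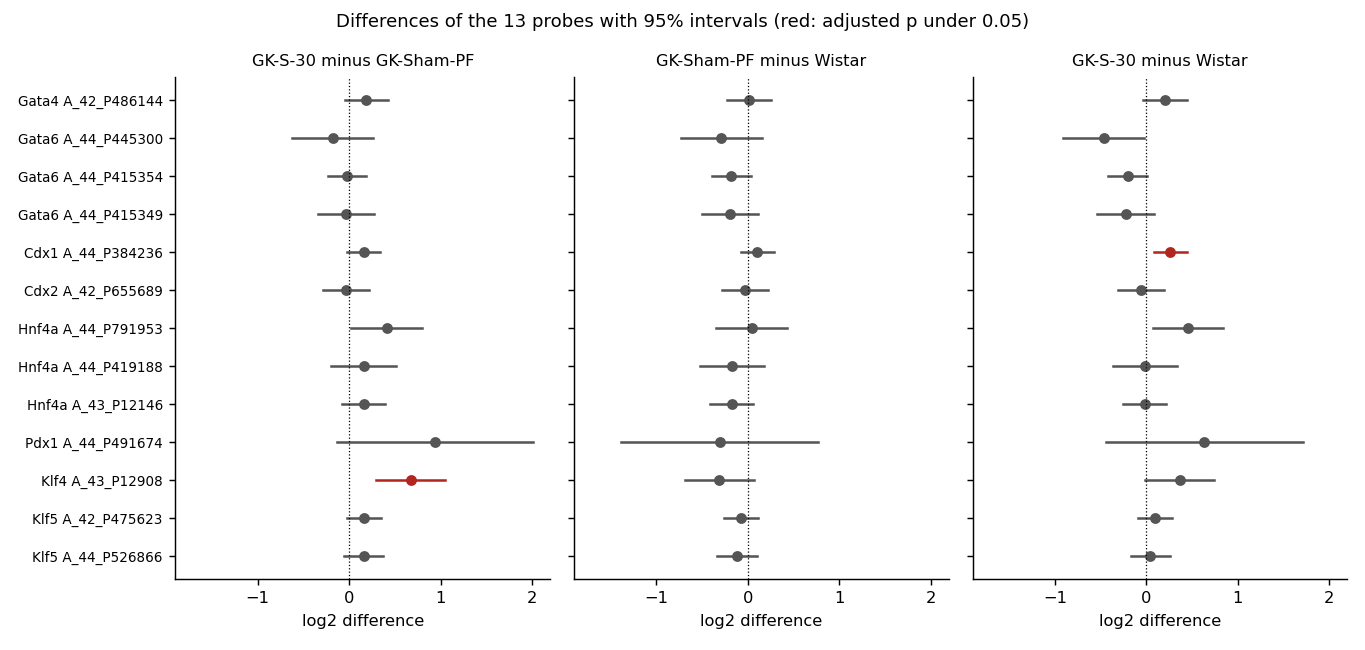
Log2 difference of each of the 13 probes (points) with its 95% interval (lines) in the 3 comparisons, from the limma model over 15 arrays; red marks an adjusted p under 0.05. Klf4 in GK-S-30 minus GK-Sham-PF (0.67) and Cdx1 in GK-S-30 minus Wistar (0.26) are the red points, and the Pdx1 interval is the widest.

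The factor of the duodenum and jejunum, Gata4, was measured at log2 signals of 11.52, 11.64, 11.09, 11.36 and 11.38 in Wistar rats. GK-Sham-PF rats gave 11.45, 11.37, 11.45, 11.55 and 11.23, and GK-S-30 rats gave 11.74, 11.80, 11.44, 11.49 and 11.52. The highest GK-S-30 arrays lay above the other groups, but the 3 groups overlapped. The surgery contrast was 0.19 on the log2 scale (standard error 0.11, 95% interval -0.049 to 0.43, limma adjusted p = 0.35), and GK-S-30 minus Wistar was 0.20 (interval -0.037 to 0.44, limma adjusted p = 0.21). GK-Sham-PF and Wistar rats differed by 0.012 (interval -0.23 to 0.25). A fall of the jejunal factor by more than 0.049 lies outside the interval of the surgery contrast, and a rise of up to 0.43 lies inside it. This interval comes from the model without slide. When slide was a block the surgery contrast was 0.38 (limma adjusted p = 0.286) and GK-S-30 minus Wistar 0.28 (limma adjusted p = 0.653).

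Gata6, its partner in the same epithelium, had a lower mean in both GK groups than in Wistar rats with each of its 3 probes in the model over all arrays, and none of these differences passed there. On probe A_44_P445300 Wistar arrays lay between 11.81 and 12.44, GK-Sham-PF arrays between 11.48 and 12.38 and GK-S-30 arrays between 11.12 and 12.11. GK-S-30 minus Wistar was -0.47 here (interval -0.91 to -0.022, limma unadjusted p = 0.0408, adjusted p = 0.119), -0.20 on A_44_P415354 (limma adjusted p = 0.151) and -0.23 on A_44_P415349 (limma adjusted p = 0.279). The highest array of the Wistar group on the first probe, 12.44, and of the GK-Sham-PF group, 12.38, were the dimmer arrays, and without both of them the difference was -0.38 (limma adjusted p = 0.161). The probe A_44_P415354 passed without GK-S-30 replicate 2 (-0.27, limma adjusted p = 0.0434) and with array weights (-0.23, limma adjusted p = 0.0485), and on slides B and C alone A_44_P415349 had the opposite sign (0.079). In the surgery contrast the 3 probes gave -0.18, -0.025 and -0.031, and without both dimmer arrays the last pair turned to 0.028 and 0.085.

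The homeobox gene Cdx2, the main regulator of intestinal identity, stayed within a narrow range. Its log2 signal was 13.42, 13.81, 13.51, 13.37 and 13.41 in Wistar, 13.62, 13.71, 13.37, 13.46 and 13.24 in GK-Sham-PF and 13.63, 13.29, 13.62, 13.41 and 13.28 in GK-S-30 rats. The arrays of all 3 groups overlapped throughout. The surgery contrast was -0.034 (interval -0.28 to 0.22), the strain contrast -0.026 (interval -0.28 to 0.22) and GK-S-30 minus Wistar -0.060 (interval -0.31 to 0.19). A change of more than 0.31 in either direction lies outside each of the 3 intervals, which come from the model without slide. When slide was a block the 3 differences were 0.11, 0.14 and 0.25, the last above its interval. None of them passed (limma adjusted p = 0.809, 0.999 and 0.735).

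Its close relative Cdx1 was higher in GK-S-30 than in Wistar rats by a small amount. Wistar arrays measured 8.51, 8.34, 8.51, 8.30 and 8.44, GK-Sham-PF arrays 8.46, 8.57, 8.41, 8.59 and 8.60, and GK-S-30 arrays 8.59, 8.53, 8.71, 8.72 and 8.88. Every GK-S-30 array lay above every Wistar array, while the GK-Sham-PF arrays lay between and overlapped with both. The rise over Wistar was 0.26 (standard error 0.086, interval 0.080 to 0.45, 1.20-fold, limma adjusted p = 0.0367), and the surgery contrast 0.16 (interval -0.024 to 0.34, limma adjusted p = 0.30). GK-Sham-PF minus Wistar was 0.10 (limma adjusted p = 0.58). Wistar and GK-S-30 arrays never shared a slide. When slide was a block the difference from Wistar was -0.062 (limma adjusted p = 0.917), on slides B and C alone it was 0.052, and within slide C the surgery contrast of 2 against 2 arrays was -0.035.

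**Figure D2:**
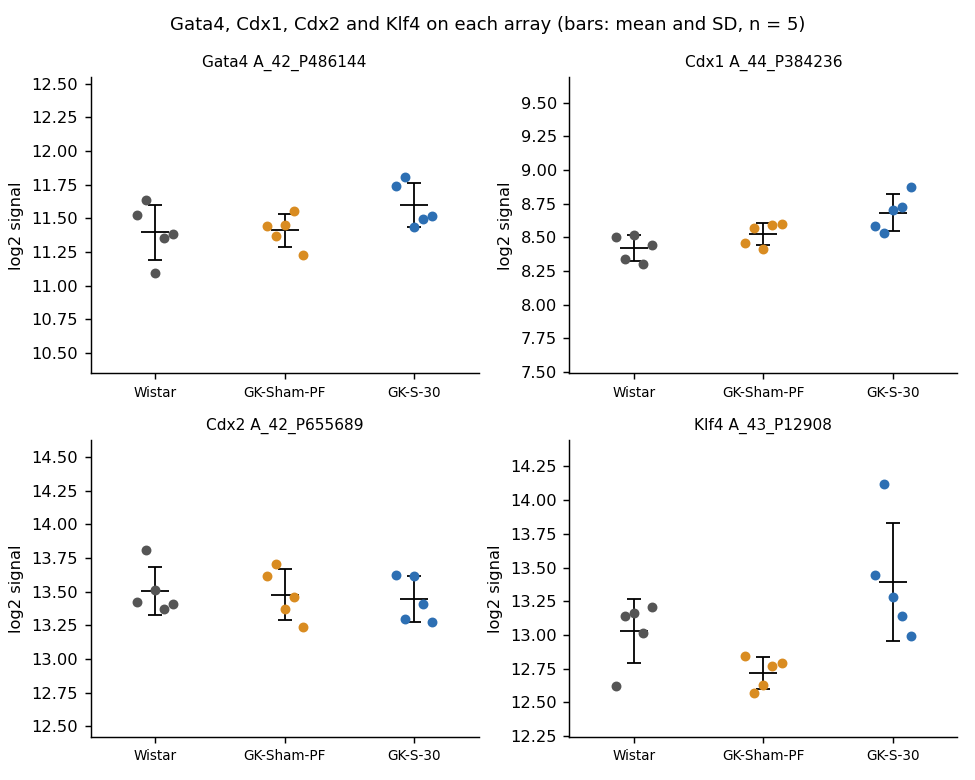
Log2 signal of Gata4, Cdx1, Cdx2 and Klf4 on each array (points, 5 rats per group in replicate order) with mean and SD; the vertical axes do not start at 0 and all cover the same height. All GK-S-30 arrays lie above all GK-Sham-PF arrays for Klf4 and above all Wistar arrays for Cdx1, and the groups overlap for Gata4 and Cdx2.

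Klf4, which acts in postmitotic and goblet cells, showed the 1 called difference between the operated groups. Wistar arrays gave log2 signals of 12.62, 13.14, 13.16, 13.01 and 13.21. GK-Sham-PF arrays gave 12.85, 12.57, 12.63, 12.77 and 12.79, and GK-S-30 arrays gave 13.44, 14.12, 13.28, 13.14 and 12.99. The order of the means was GK-S-30 at 13.39 ± 0.44, Wistar at 13.03 ± 0.24 and GK-Sham-PF at 12.72 ± 0.12 (n = 5 each). All 5 GK-S-30 arrays lay above all 5 GK-Sham-PF arrays, and Wistar arrays overlapped with both groups. Klf4 rose by 0.67 in the surgery contrast (standard error 0.18, interval 0.30 to 1.05, 1.60-fold, limma adjusted p = 0.029). GK-Sham-PF minus Wistar was -0.31 (interval -0.69 to 0.068, limma adjusted p = 0.373) and GK-S-30 minus Wistar 0.36 (interval -0.014 to 0.74, limma adjusted p = 0.151), so neither neighbour in this order passed the test against Wistar. Within slide C the surgery contrast was 1.00, the 2 GK-S-30 arrays lying above the others, and it was also 1.00 when slide was a block (limma adjusted p = 0.0252). The call was lost without GK-Sham-PF replicate 2 (limma adjusted p = 0.0697), replicate 3 (0.0626) or replicate 4 (0.0502), and without GK-S-30 replicate 1 (0.058). It was also lost with only the arrays of both groups in the fit (limma adjusted p = 0.0542), and without GK-S-30 replicate 2, the highest array, the difference was 0.49. The smooth muscle genes described further on also lay higher in GK-S-30 rats, with a summed log2 level of 17.33 to 17.69 against 15.54 to 16.72 in GK-Sham-PF rats, and their part in the Klf4 difference was not tested.

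Klf5, the Klf family member of dividing crypt cells, had 2 probes and neither passed. On probe A_42_P475623 the arrays lay between 11.94 and 12.15 in Wistar, 11.85 and 12.09 in GK-Sham-PF and 11.94 and 12.30 in GK-S-30 rats. On A_44_P526866 they lay between 11.47 and 11.80, 11.31 and 11.64, and 11.38 and 11.76. The surgery contrast was 0.17 (interval -0.020 to 0.35, limma adjusted p = 0.286) and 0.16 (interval -0.054 to 0.38, limma adjusted p = 0.383), and the differences from Wistar rats lay between -0.12 and 0.093.

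In the surgery contrast all 3 probes of Hnf4a were higher, by unlike amounts, and against Wistar rats A_44_P791953 alone was. On A_44_P791953 Wistar arrays measured 11.52, 11.71, 10.80, 11.57 and 11.57. GK-Sham-PF arrays measured 11.72, 11.70, 11.53, 11.63 and 10.82, and GK-S-30 arrays 11.98, 11.87, 11.85, 11.92 and 11.83. All GK-S-30 arrays lay above those of both other groups, and the low values of 10.80 and 10.82 came from the 2 dimmer arrays. GK-S-30 minus Wistar was 0.45 (interval 0.068 to 0.84, limma adjusted p = 0.0825) and the surgery contrast 0.41 (interval 0.024 to 0.80, limma adjusted p = 0.194), so neither passed. Without both dimmer arrays the differences were smaller, 0.30 and 0.25, and passed with limma adjusted p-values of 0.00888 and 0.046. The difference from Wistar also passed with scaling to the 75th percentile (0.53, limma adjusted p = 0.0291), with array weights (0.32, limma adjusted p = 0.0326) and without GK-Sham-PF replicate 5 (0.45, limma adjusted p = 0.0269). When slide was a block, the surgery contrast was 0.70 and the difference from Wistar 0.83, and neither passed (limma adjusted p = 0.248 and 0.414). The other probes, A_44_P419188 and A_43_P12146, differed by -0.017 and -0.020 between GK-S-30 and Wistar rats and by 0.16 each in the surgery contrast, with limma adjusted p-values of 0.443 to 0.957. Without both dimmer arrays their surgery contrasts were 0.15 (limma adjusted p = 0.663) and 0.25 (limma adjusted p = 0.0701). Their differences from Wistar rats were then -0.0055 and 0.027. The GK-S-30 values of A_44_P419188 were spread widely, at 8.77, 9.39, 8.56, 9.42 and 9.32. A_43_P12146 was printed in 10 spots on each array, whose log2 values differed by an SD of 0.0421 to 0.16 within an array, and its interval for GK-S-30 minus Wistar ran from -0.25 to 0.21. Non-overlapping, higher values of Hnf4a were thus seen on 1 of its 3 probes.

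**Figure D3:**
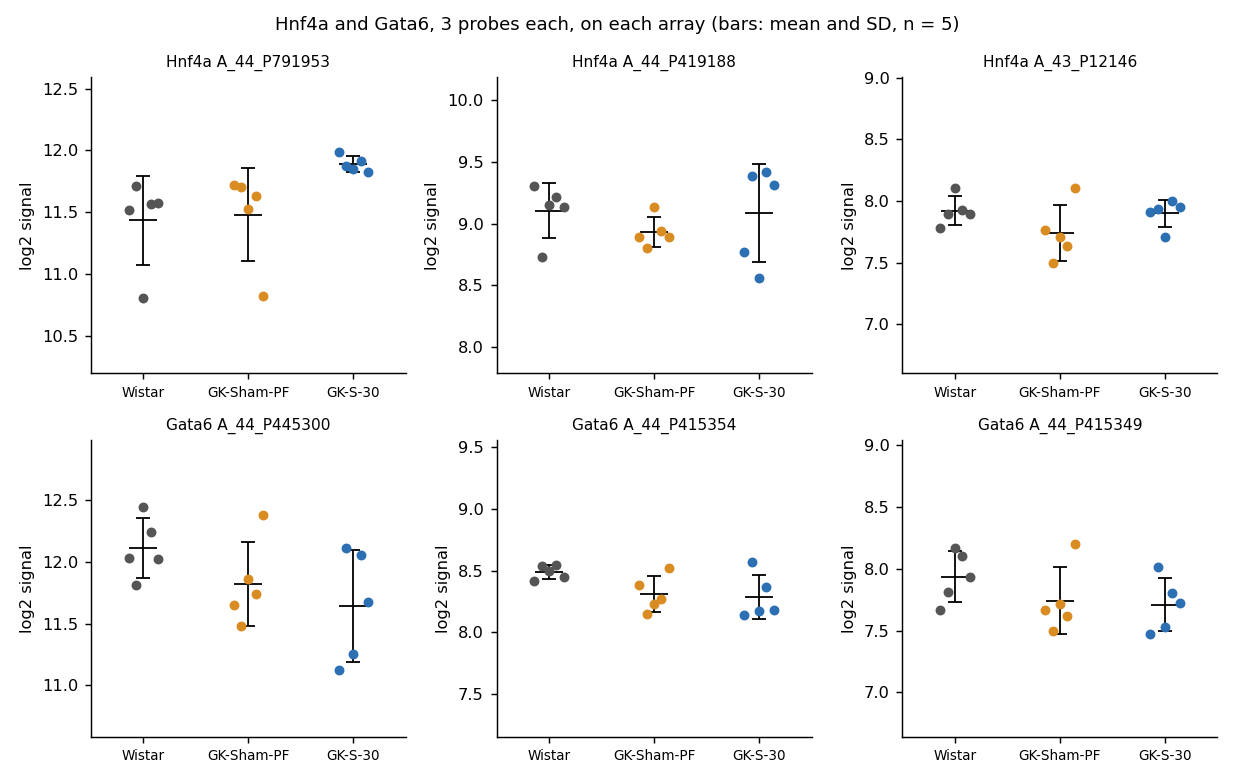
Log2 signal of the 3 probes of Hnf4a (top) and of Gata6 (bottom) on each array (points, 5 rats per group in replicate order) with mean and SD; the vertical axes do not start at 0 and all cover the same height. GK-S-30 lies above the other groups on the Hnf4a probe A_44_P791953 alone, where the dimmer arrays give 10.80 and 10.82, and Wistar has the highest mean on each Gata6 probe.

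Pdx1, the factor of the pylorus, duodenum and pancreas, varied most between rats of one group. Wistar arrays gave 6.92, 7.22, 5.69, 8.11 and 6.39, GK-Sham-PF arrays 7.52, 6.53, 5.56, 5.51 and 7.67, and GK-S-30 arrays 7.94, 8.12, 6.41, 7.84 and 7.19. The groups overlapped, with SDs of 0.91, 1.03 and 0.70. The surgery contrast was 0.94 (standard error 0.50, interval -0.13 to 2.02, limma adjusted p = 0.294) and GK-S-30 minus Wistar 0.63 (interval -0.44 to 1.71, limma adjusted p = 0.393), so neither passed the test at this spread between rats. Without both dimmer arrays they were 1.22 and 0.34. Over the 15 arrays, which share 3 groups and their slides, the genes most like Pdx1 were Best4 (Pearson r = 0.84), Papss2 (0.82) and the duodenal hormone gene Cck (0.82). Those most like Klf4 were Esyt3 (0.87), Tbcb (0.86) and Fam83b (0.86), and those most like Gata6 were Tdrd3 (0.96), Mef2a (0.93) and Usp25 (0.93).

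The relatives that were called after quantile normalization in the model over all arrays without a block were all lower. All 3 belong to the Klf family, which makes up most of the list. With scaling to the 75th percentile, 1 was called higher and 4 lower between GK-S-30 and Wistar rats. Without both dimmer arrays 1 was called higher and 5 lower in that comparison. Among the relatives (Gata, Cdx, Hnf4 and Klf genes and the Gata cofactors Zfpm1 and Zfpm2), 0 of 15 tested genes were called higher and 2 lower in the surgery contrast, with a median of -0.23 against -0.030 over all genes, of which 9.14% were called. These were Klf15, a glucocorticoid-responsive metabolic regulator, which fell by 0.98 on the log2 scale (standard error 0.15, limma adjusted p = 0.00119), and Klf11, which fell by 0.43 (limma adjusted p = 0.0305). Klf15 measured 11.79, 11.82, 11.61, 11.95 and 11.49 in GK-Sham-PF and 10.60, 10.54, 11.23, 10.87 and 10.52 in GK-S-30 rats, with no overlap. In the strain contrast 1 of 15 was called, Klf10, a TGF-beta response gene, at -0.53 (limma adjusted p = 0.0199), where 8.4% of all genes were called. Between GK-S-30 and Wistar rats Klf15 (-0.78), Klf10 (-0.77) and Klf11 (-0.53) were called lower and 0 higher, where 25.5% of all genes were called. A further list of 16 tested gut factors, among them Foxa2, Tcf7l2 and Sox9, had 1 gene called in the surgery contrast. This was Creb3l3, a membrane-bound regulator of lipid genes, which fell by 0.44 (limma adjusted p = 0.0346). With the slides as a block, Klf15 still passed in the surgery contrast (-1.15, limma adjusted p = 0.0317), and the calls of Klf11 (limma adjusted p = 0.25) and Creb3l3 (0.286) there, of Klf10 in the strain contrast (0.296) and of Klf10, Klf11 and Klf15 against Wistar rats (0.12, 0.183 and 0.146) were lost. Foxa1 was not well above background on any array.

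Some promoters of genes known to be bound by these factors carry short recognition words. Shown are 3 promoters that hold such words, to place the values of their genes. Lct and Fabp2 are in the list of known targets, while Slc10a2 is not and is shown as a distal marker. The words were sought on both strands in RefSeq promoters (assembly GRCr8). They were AGATAA for GATA factors, CAAAGTCCA, CAAAGGTCA or CAAAGTTCA for Hnf4a, TTTATG for Cdx factors and GGGGTGNGG for Klf factors, and no match below overlaps another. Each line gives the 250 bases before the start, 5′ to 3′ on the strand of the gene, with matches in capitals. The windows, which go on past the start, are chr13:42376823-42377122 on the minus strand for Lct, chr2:213724379-213724678 on the plus strand for Fabp2 and chr16:91087839-91088138 on the plus strand for Slc10a2.
Lct: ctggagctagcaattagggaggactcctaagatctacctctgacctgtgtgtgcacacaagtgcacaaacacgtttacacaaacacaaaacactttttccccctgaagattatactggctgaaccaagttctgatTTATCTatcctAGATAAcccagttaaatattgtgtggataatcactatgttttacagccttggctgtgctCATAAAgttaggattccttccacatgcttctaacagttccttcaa
Fabp2: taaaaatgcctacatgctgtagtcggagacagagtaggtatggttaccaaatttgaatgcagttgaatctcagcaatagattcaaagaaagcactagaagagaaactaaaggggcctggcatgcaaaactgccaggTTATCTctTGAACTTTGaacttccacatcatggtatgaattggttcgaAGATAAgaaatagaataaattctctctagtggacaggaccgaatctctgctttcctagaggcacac
Slc10a2: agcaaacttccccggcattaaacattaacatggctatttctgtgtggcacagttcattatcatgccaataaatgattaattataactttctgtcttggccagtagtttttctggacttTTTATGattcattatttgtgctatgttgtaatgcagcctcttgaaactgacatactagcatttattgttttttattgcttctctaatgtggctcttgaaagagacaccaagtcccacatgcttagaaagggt
Lct holds 2 GATA words and 1 Cdx word, Fabp2 holds 2 GATA words and 1 Hnf4a word, and Slc10a2 holds 1 Cdx word. Of 11 known target genes with a promoter in the table, 3 hold the GATA word, 2 an Hnf4a word and 4 the Cdx word, against 11.6%, 1.13% and 12.7% of 33469 rat promoters. A gene was counted if any of its promoters held the word, while the shares are of single promoters, so the 2 are unlike measures. A match is a description of letters and does not show binding. Among the factors themselves, promoters were listed for 7. Of these, Hnf4a (not in every promoter listed for it) and Klf4 hold the GATA word, and Klf5, Gata6 and Cdx1 the Klf word, which 7.64% of all promoters hold.

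Of 18 tested genes that these factors are known to activate, 0 were called higher and 2 lower in the surgery contrast, where 9.14% of all genes were called, with a median of -0.072. Apoc3, the apolipoprotein of chylomicrons and a classic Hnf4a target, measured 16.33, 16.30, 15.67, 15.83 and 15.86 in GK-Sham-PF and 13.92, 15.16, 15.02, 15.38 and 14.70 in GK-S-30 rats. It fell by 1.16 (standard error 0.24, limma adjusted p = 0.00724), with no overlap. Mttp, the lipid transfer protein that loads chylomicrons, fell by 0.34 (limma adjusted p = 0.0352). Against Wistar rats Apoc3 (-0.75), Mttp (-0.51) and Fabp2, the enterocyte fatty acid carrier (-0.28, limma adjusted p = 0.016), were called lower and 0 higher, where 25.5% of all genes were called, and in the strain contrast 0 of 18 passed by limma, with 2 at an unadjusted p under 0.05. When slide was a block these calls were lost, with Apoc3 at -1.30 in the surgery contrast (limma adjusted p = 0.0983) and at -0.99 against Wistar rats (limma adjusted p = 0.45). Lct, the jejunal lactase gene, named here for its promoter and after its values were seen, gave 8.25, 10.75, 11.16, 10.92 and 10.09 in GK-S-30 rats and -1.06 against GK-Sham-PF rats (limma adjusted p = 0.27).

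Marker genes of bowel regions were called in both directions in the proximal list. In the distal list the surgery contrast had calls upward alone after quantile normalization, and 3 upward and 1 downward with scaling to the 75th percentile. Of 13 tested markers of the proximal small intestine, 2 were called higher and 1 lower in the surgery contrast, with a median of -0.12, where 9.14% of all genes were called. The iron transporter Slc11a2 rose by 1.50 (limma adjusted p = 0.0437) and the hormone secretin (Sct) by 0.90 (limma adjusted p = 0.00977), while S100g, the calcium-binding protein of the duodenum, fell by 0.86 (limma adjusted p = 0.00452). Of 9 tested markers of the distal small intestine 3 were called higher and 0 lower, with a median of 0.16. These were Slc10a2, the ileal bile acid transporter, Fabp6, the ileal bile acid-binding protein, and the proglucagon gene Gcg, which rose by 0.42 (limma adjusted p = 0.0458). When slide was a block, Slc11a2, Sct and S100g no longer passed (limma adjusted p = 0.0522, 0.641 and 0.254), and of the 9 distal markers 1 was called higher, Slc10a2, and 1 lower, with a median of -0.17. The lower one was Cubn, the ileal receptor of the vitamin B12 complex, which was at -2.20 without the block (limma adjusted p = 0.0509) and at -3.63 with it (limma adjusted p = 0.00632).

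Slc10a2 had the largest called surgery contrast of these markers. It measured 6.23, 7.19, 6.74, 6.82 and 7.49 in Wistar, 4.48, 4.03, 5.16, 4.52 and 4.22 in GK-Sham-PF and 8.63, 8.43, 7.79, 7.12 and 7.60 in GK-S-30 rats, well above background on all arrays. GK-Sham-PF arrays lay below all others. The surgery contrast was 3.43 (standard error 0.30, limma adjusted p = 8.68e-06), the strain contrast -2.41 (limma adjusted p = 5.96e-05, and lost at -1.67 with an adjusted p of 0.0772 when slide was a block) and GK-S-30 minus Wistar 1.02 (limma adjusted p = 0.0206, and a difference of 2.49 when slide was a block). Fabp6 measured 9.32, 7.19, 7.64, 7.60 and 7.58 in GK-Sham-PF and 10.08, 9.28, 9.89, 8.30 and 10.32 in GK-S-30 rats. It rose by 1.71 over GK-Sham-PF (limma adjusted p = 0.021) and by 2.08 over Wistar rats (limma adjusted p = 0.00218), and when slide was a block neither passed (limma adjusted p = 0.16 and 0.209). Against Wistar rats, where 25.5% of all genes were called, the proximal list had 1 gene called higher and 2 lower in GK-S-30 rats, among them S100g (-1.66) and the folate transporter Slc46a1 (-1.22), and the distal list 3 higher and 2 lower, among them Cubn (-2.34). In the strain contrast, where 8.4% of all genes were called, S100g (-0.80) and Slc46a1 (-0.75) were the proximal genes called lower. Slc10a2 was the only distal gene called. Under the slide block the strain calls of S100g and Slc46a1 were lost (limma adjusted p = 0.649 and 0.404), as were their calls and that of Sct against Wistar rats (0.172, 0.085 and 0.759), where of the distal genes 1 higher, Slc10a2, and 1 lower, Cubn, still passed. The piece was labelled only as an intestinal segment. In the surgery contrast, where 9.14% of all genes were called, 0 of 3 tested colon genes passed by limma (0 also at an unadjusted p under 0.05). Of 6 stomach genes 1 was called lower, Muc6 (-0.76), and of 7 pancreas genes 1, Ctrb1 (-0.92). Both calls were lost when slide was a block (limma adjusted p = 0.104 and 0.388). Hoxb13, Hoxd13, Cblif, Cpb1, Pnlip and, of the distal list, Fgf19 were not well above background on any array.

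**Figure D4:**
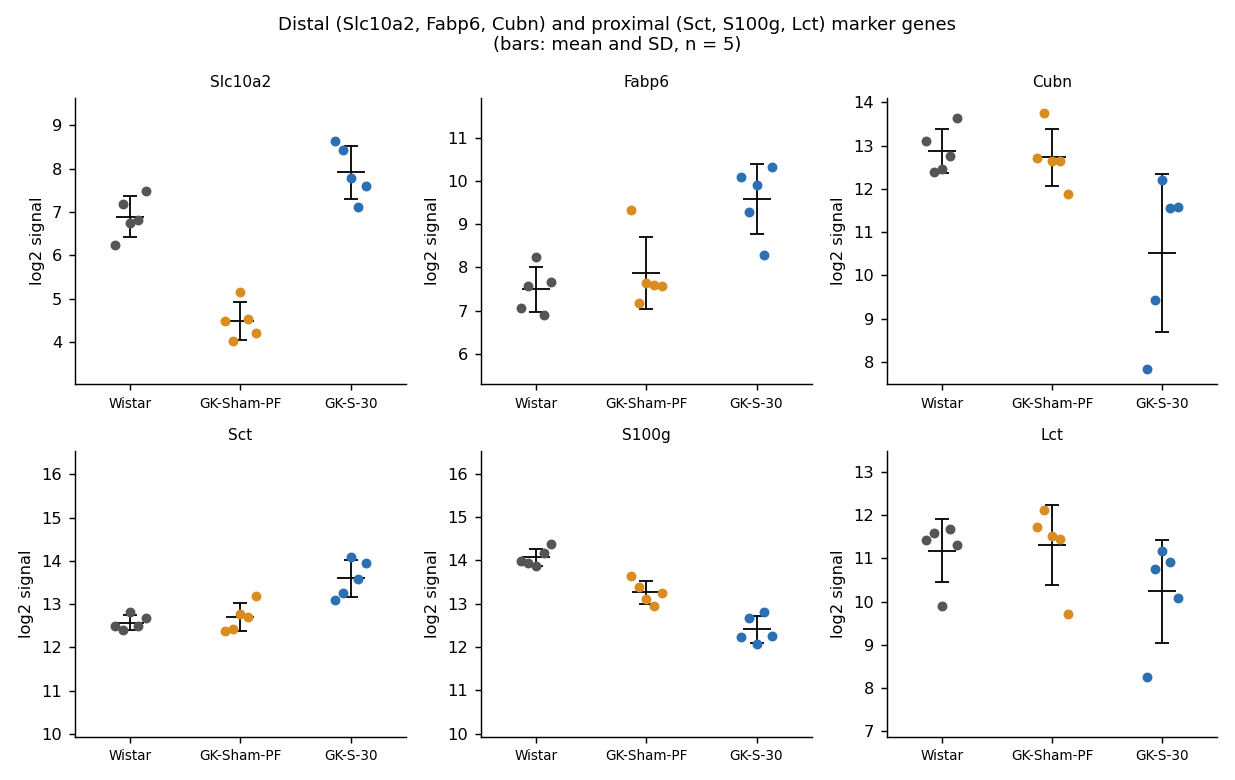
Log2 signal of 3 distal markers (Slc10a2, Fabp6, Cubn; top) and 3 proximal markers (Sct, S100g, Lct; bottom) on each array (points, 5 rats per group in replicate order) with mean and SD; the vertical axes do not start at 0 and all cover the same height. Slc10a2 and Fabp6 have their highest means in GK-S-30 rats, Cubn and S100g their lowest, and Lct overlaps between groups.

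Among markers of cell types, smooth muscle had the most calls in the surgery contrast, where 9.14% of all genes were called. All 8 tested smooth muscle genes lay higher in the surgery contrast, 5 of them were called, and the median difference was 1.33. Actg2 rose by 2.35, Cnn1 by 2.23, Des by 1.99 and Tagln by 1.45 (limma adjusted p = 0.000445 for Tagln, the largest of these 4). Against Wistar rats, where 25.5% of all genes were called, 6 of 8 smooth muscle genes were called higher. These calls were lost when slide was a block (median difference 0.65), while in the surgery contrast 4 of 8 were still called with that block. The mean log2 level of the list lay between 12.61 and 12.96 in GK-S-30, 10.96 and 12.14 in GK-Sham-PF and 11.23 and 11.92 in Wistar rats, and the summed level between 17.33 and 17.69, 15.54 and 16.72, and 15.87 and 16.50. Of 10 epithelial genes, 2 were called higher, Krt19 (0.56) and Krt18 (0.29), and 0 lower, and their mean log2 level lay between 14.56 and 14.70 in GK-S-30, 14.29 and 14.52 in GK-Sham-PF and 14.32 and 14.54 in Wistar rats. Of 7 villus enterocyte genes and 11 genes of proliferating crypts, 0 passed by limma in this contrast (1 and 2 at an unadjusted p under 0.05), with medians of -0.043 and 0.21. Of 6 goblet cell genes 1 was called, Clca1, at 0.73 (limma adjusted p = 0.0156), of 7 endothelial genes Vwf, at 0.55, and of 7 immune genes the T cell gene Cd3e, at -0.76. Under the slide block the calls of Clca1 (limma adjusted p = 0.0594) and Krt18 (0.254) were lost, and those of Krt19, Vwf and Cd3e still passed. Against Wistar rats 3 of 6 goblet cell genes were called higher, and 2 of 7 immune genes higher and 3 lower. These counts stand beside the same 25.5% of all genes. In the strain contrast, where 8.4% of all genes were called, 2 of 7 immune genes were called higher and 1 lower. The higher ones were the B cell genes Cd79a (0.82) and Cd79b (0.98), and the lower one the myeloid gene Itgam (-2.08). With that block the goblet and immune calls against Wistar rats were lost, and of the immune strain calls that of Itgam still passed. Whether the smooth muscle or epithelial level had a part in the differences of Klf4, Cdx1 or the markers was not tested.

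**Figure D5:**
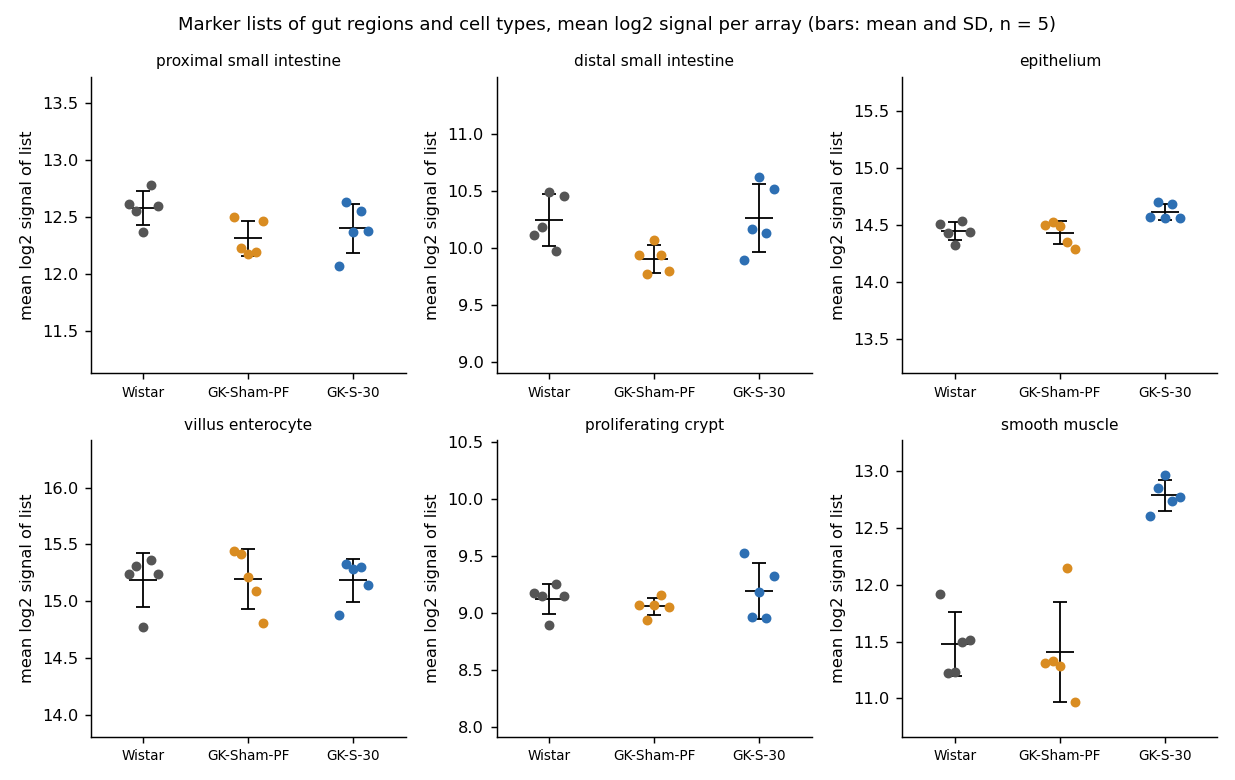
Mean log2 signal of the marker genes of 6 regions or cell types on each array (points, 5 rats per group in replicate order) with mean and SD; the vertical axes do not start at 0 and all cover the same height. The smooth muscle list lies between 12.61 and 12.96 in GK-S-30 rats and at most at 12.14 in the others, the epithelium list also lies highest there, and the villus and crypt lists overlap between groups.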

How the data were processed

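Total RNA from 15 rats, 5 per group, was read on Agilent whole-genome rat arrays in 1 colour. The intensity values were deposited by the authors as Feature Extraction 10.7 wrote them (processed signal, with mean signal, median background and other marks of each spot, such as well above background), not normalized between arrays. The deposited series matrix holds log2 values that the authors had quantile-normalized. Here, after removal of control and outlier spots, repeated spots were averaged by probe and log2 processed signals were quantile-normalized (R 4.3.3, limma 3.58.1). Of 41012 probes, 22586 had a gene name, brought up to date by RefSeq tables (GRCr8). A named probe was tested if all arrays of 1 group or more measured it well above background, which left 17068 probes, fitted over 15 arrays (lmFit, contrasts.fit, eBayes) in 3 comparisons, 2-sided, without covariates, with Benjamini-Hochberg adjustment at 0.05. The methods' one-way model with Tukey correction was an alternative, beside other normalizations, filters, blocks, weights and leaving out arrays. Gene lists were read from the same fit, 1 probe per gene, the brightest. Every probe of the chosen factors is named. From each list at most the 4 called genes with the largest difference and genes never above background are named, and others were named after their values were seen. The members, lists and tests were chosen with earlier results of these data known. The labels do not say more of the replicates than that each is 1 rat. An array measured 66.7% to 74.8% of probes well above background. The median standard error of a log2 difference was 0.15, a precision that the number of arrays limits. The fit was tested on simulated data. Figures were drawn with matplotlib 3.10.9.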

Additional observations from a re-analysis of the deposited data

Results flagged for a closer look

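Within groups of 5, 39 sets of arrays (13 probes in 3 groups) were searched for a single array far from the rest, and 3 were found. Chance flags about 1 in 20 such groups. On the Hnf4a probe A_44_P791953, Wistar replicate 3 lay at 10.8 with the nearest array at 11.52, and GK-Sham-PF replicate 5 lay at 10.82 with the nearest at 11.53. On the Klf5 probe A_44_P526866, Wistar replicate 3 lay at 11.8 with the nearest at 11.57. All 3 values came from the 2 dimmer arrays, whose 75th percentile of the signal was 207 and 208, against 302 or more elsewhere. Their part in these values was not tested. Without both arrays, an alternative chosen after seeing the data, the surgery contrast of the Klf5 probe was 0.21 (limma adjusted p = 0.165).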

How the results depend on the processing

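In the surgery contrast 1 of the 13 probes passed. The count was 0 with the arrays of both groups alone, 0 after Benjamini-Hochberg adjustment of the Tukey p, 2 without both dimmer arrays (chosen after seeing the data), and 0 to 1 when single arrays were left out. In GK-S-30 against Wistar rats, 1 passed. The count was 2 with scaling to the 75th percentile, 0 with slide as a fixed block, 0 with the arrays of both groups alone, 3 with array weights, 0 on slides B and C alone and 2 without both dimmer arrays (both chosen after seeing the data), and 0 to 2 when single arrays were left out (2 without GK-Sham-PF replicate 5 or GK-S-30 replicate 2). In the strain contrast 0 passed in every fit run. Cdx1 between GK-S-30 and Wistar rats reversed with slide as a fixed block, from 0.26 to -0.062. Its call was also lost without Wistar replicate 2, 4 or 5 or GK-S-30 replicate 3, 4 or 5 (differences of 0.22 to 0.27). No slide held both groups, so group and slide cannot be told apart here, and the cause was not tested. Over all probes, slide as a fixed block left 337, 213 and 274 calls of 1432, 1344 and 4113, array weights gave 2404, 3178 and 5467, the Tukey p alone 2572, 2375 and 4702, and its adjusted form 573, 826 and 2699. With slides B and C alone 424, 169 and 410 were called.

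The labels do not say whether the same replicate number pairs rats, and the values alone cannot settle it. Arrays of the same number had correlated deviations from their group means of -0.29 to 0.20 over 15 pairs, against -0.41 to 0.62 for other pairs. With the replicate block, 0 of 13 probes passed in each comparison (Klf4 adjusted p = 0.0642, Cdx1 adjusted p = 0.0756, by limma), and 975, 987 and 3360 probes passed in all.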
